A study of Homo sapiens with 16 samples.

Results

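7SL RNA is the RNA core of the signal recognition particle, a ribonucleoprotein that binds signal peptides as they leave the ribosome and takes the translating ribosome to the endoplasmic reticulum. It is made by RNA polymerase III, its Alu domain is built from the 5′ and 3′ ends and its S domain from the middle, and the human genome holds many pseudogene copies besides the genes RN7SL1, RN7SL2 and RN7SL3. Described here are the sites of a pseudouridine map of HEK293T cells, a transformed human line of embryonic kidney origin, whose deposited gene symbol begins with RN7SL or equals Metazoa_SRP, the name of the same family in Ensembl. There were 52 such sites under 43 gene IDs among 13398 sites in all, 45 of them named RN7SL and 7 named Metazoa_SRP.

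The map was made with PRAISE-seq, in which pseudouridine, an isomer of uridine, reacts with bisulfite and is then skipped by reverse transcriptase, which leaves a gap at the modified base in some of its reads. The series has 16 libraries, which are 3 bisulfite-treated HEK293T libraries labelled PUS-TKO, a knockout whose genes the labels do not name, 3 PUS-TKO libraries with no mark of treatment, 2 bisulfite-treated and 2 nontreated HEK293T control libraries, 3 bisulfite-treated libraries of HuCCT1, a bile duct cancer line, and 3 HuCCT1 input libraries. RNA was depleted of ribosomal RNA before treatment. The table analysed gives each site 1 deletion level, 1 coverage and an 11-nt context with the site at base 6, with no column for a library, so no comparison between knockout and control could be made and the levels carry no replicate error. Intervals are exact binomial (Clopper-Pearson, 95%) and cover nothing beyond the error of counting, and reads of a fragment copied by PCR are not independent molecules. Positions are on hg38.

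Of 22 sites that lay inside a 7SL copy of the RefSeq annotation, 19 were at 2 uridines that stood 10 bases apart, 13 at the downstream and 6 at the upstream one. A further 3 sites, named Metazoa_SRP, have no RefSeq copy of that name and are counted with these uridines only because they carry the same 11 bases. The contexts are shown because each of these uridines recurred with the same neighbours at many copies, with the listed uridine in capitals and T standing for U as deposited. The downstream uridine was listed in RN7SL3 and 12 other copies in the first context, and in 1 copy each in the second (RN7SL493P) and the third (RN7SL828P). The upstream uridine was listed in 3 copies in the fourth context (RN7SL664P, RN7SL828P, RN7SL4P), in 3 in the fifth (RN7SL508P, RN7SL660P, a Metazoa_SRP copy on chromosome 14) and in 1 in the sixth (RN7SL220P).
Downstream, 13 copies: agtagTgggat
Downstream, RN7SL493P: agcagTgggat
Downstream, RN7SL828P: agtagTaggat
Upstream, 3 copies: cgtgcTgatca
Upstream, 3 copies: catgcTgatca
Upstream, RN7SL220P: tgtgcTgatca

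With positions counted from 1 at the 5′ end of the context, RN7SL493P differed from the common downstream context by T3C and RN7SL828P by G7A. The upstream contexts differed from that of RN7SL664P by G2A and by C1T. At 2 copies both uridines were listed, and their contexts overlap by a base, so that they join to 21 bases with both listed uridines in capitals. RN7SL660P carries them on chromosome 14 at 32442561 to 32442581 on the plus strand, and RN7SL828P on chromosome 11 at 118067461 to 118067481 on the plus strand.
RN7SL660P: catgcTgatcagtagTgggat
RN7SL828P: cgtgcTgatcagtagTaggat

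The name of a site did not place it in a 7SL copy. Of the 38 symbols, 37 matched a gene in the RefSeq annotation of GRCh38.p14, the exception being Metazoa_SRP, and 22 of the 45 sites named RN7SL lay inside the RefSeq extent of their gene. The other 23 lay 1074 to 74079 nt away from it, with a median distance of 13740 nt. Of the 7 Metazoa_SRP sites, which have no RefSeq gene of that name to set them against, 3 carried a context listed inside a RefSeq copy and 4 did not. None of the 7 lies inside any RefSeq gene named RN7SL. RN7SL166P has 1 site inside its copy, on the minus strand, and 1 at a distance of 4374 nt, on the plus strand.

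**Figure D1:**
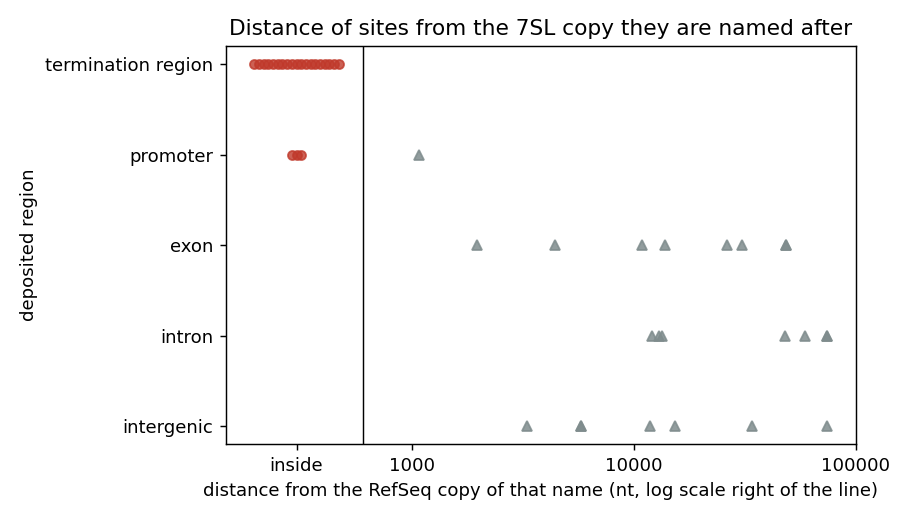
The 45 sites named RN7SL, by the region in the deposited annotation (vertical axis) and by the distance from the RefSeq gene of that name (horizontal axis, nt, log scale to the right of the line). Red circles are the 22 sites inside their copy, spread sideways to be seen, and grey triangles are the 23 sites outside, at 1074 to 74079 nt; all sites in termination regions lie inside.

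The deposited region followed this split. Inside the copies, 19 of 22 sites were annotated as transcription termination region and 3 as promoter, whereas of the 23 outside 8 were exonic, 7 intronic, 7 intergenic and 1 in a promoter. Of the 7 Metazoa_SRP sites, the 3 with a context of a copy were in termination regions and the other 4 were intergenic. Termination regions held 42.3% of all 7SL-named sites, against 2.48% of the whole map. The 19 inside copies lay 46 to 74 bases before the end of their own copy. An exception was the downstream uridine of RN7SL430P, labelled promoter although it lay 53 bases before the end of its copy. The label thus mostly went with the place of the site in a short gene, and how it was assigned was not tested.

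RN7SL3, 1 of the family genes not named as a pseudogene, had the deepest site. The downstream uridine stands at position 236 of its 299 nt, on chromosome 14 at 49853679 on the minus strand, and its deletion level was 5.6% (344 of 6137 reads, interval 5.04 to 6.21%). It lay just above the 5.0% below which no site of the table is listed. RN7SL1 and RN7SL2, which have the same length in RefSeq, had 0 sites in the table, and no level under the listing minimum can be read from it. Near-identical copies can share reads, so a level at any copy may hold reads of another.

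Within the copies the listed uridines lay at a nearly constant distance from the 3′ end, counted on the strand of the site. In the 13 RefSeq copies with the downstream uridine it was 53 to 64 bases before the last base, with a median of 63, and in 10 of the 13 it was within 1 base of that median. Counted from the start, it ranged from position 189 in RN7SL430P, whose copy is 242 nt long, to 239 in RN7SL828P, which is 302 nt long. The upstream uridine was 73 or 74 bases from the end in 5 of 6 RefSeq copies and 46 bases from it in RN7SL4P, a copy of 272 nt. No context of the 22 sites was found in reverse complement anywhere in the map, and the downstream context occurred on 7 copies on the minus strand and 6 on the plus strand.

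**Figure D2:**
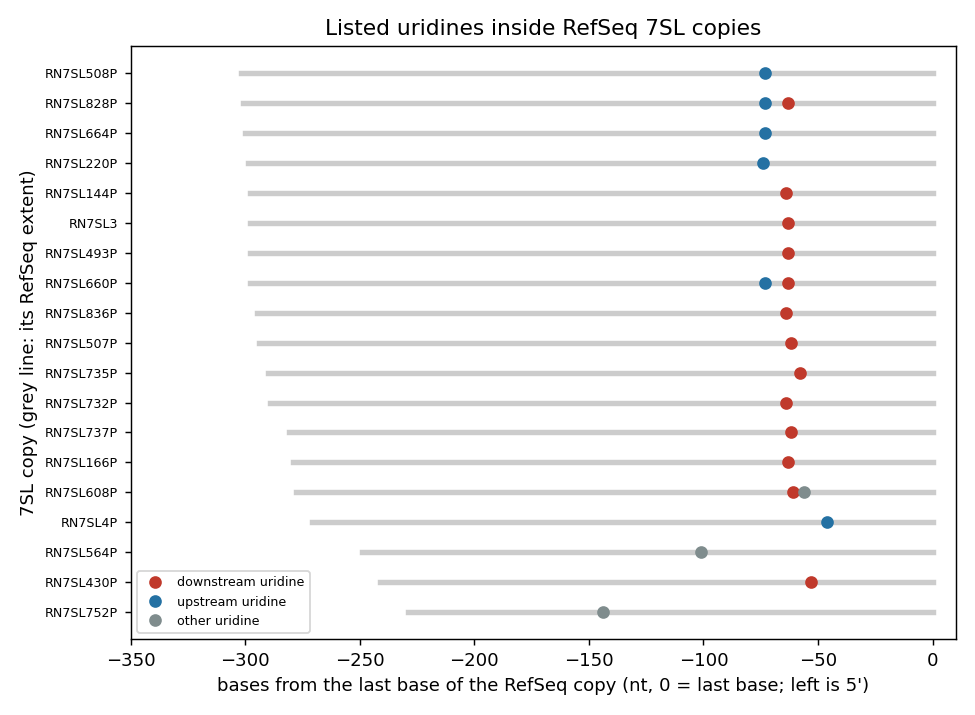
Position of the 22 sites inside the 19 RefSeq 7SL copies, as bases before the last base of the copy (horizontal axis, nt, 0 being the last base), with a grey line for the extent of each copy, longest first. The downstream uridine (red) sits 53 to 64 bases before the end and the upstream uridine (blue) 46 to 74, while 3 other uridines (grey) were listed at RN7SL608P, RN7SL564P and RN7SL752P.

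Of 687 RefSeq genes named RN7SL, 19 had a listed site inside, and no site of another symbol fell inside any of them. The downstream context was among the most repeated of the map. It was listed 15 times in all, and 3 contexts were listed more often.

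The level at the downstream uridine ranged widely between copies with the identical context. The lowest of the 13 was 5.1% in RN7SL737P (4 of 79 reads, interval 1.4 to 12.5%), the median 9.5% and the highest 43.3% in RN7SL608P (13 of 30 reads, interval 25.5 to 62.6%). RN7SL608P lies on chromosome 17, with the site at 2681173 on the plus strand, inside the RefSeq extent of PAFAH1B1, a regulator of dynein. RN7SL735P, inside PRKCA, a protein kinase C gene on the same chromosome, had 24.1% (7 of 29 reads, interval 10.3 to 43.5%).

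The deeper copies had narrower intervals. RN7SL732P on chromosome X, with the site at 39786588 on the minus strand, had 15.5% (70 of 452 reads, interval 12.3 to 19.2%). RN7SL166P on chromosome 13, inside PSPC1, a paraspeckle protein gene, had 9.5% (59 of 623 reads, interval 7.29 to 12.1%). RN7SL144P, also on chromosome X and inside CASK, a scaffold protein gene, had 8.0% (25 of 311 reads, interval 5.27 to 11.6%). These 3 intervals and that of RN7SL3 did not all overlap, since RN7SL732P lay above the other 3 copies.

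The remaining 6 copies with the identical context had 4 to 8 deletion reads, except RN7SL507P, which had 3. Their levels were 12.1% in a Metazoa_SRP copy on chromosome 17 at 18605117 (4 of 33 reads), 11.3% in RN7SL430P (6 of 53), 10.2% in RN7SL660P (6 of 59) and 7.5% in RN7SL836P (4 of 53). A further Metazoa_SRP copy on chromosome 17, at 20340982, also had 7.5% (8 of 106), and RN7SL507P had 5.3% (3 of 57). The intervals of all 6 contained the level of RN7SL3. RN7SL493P, with its T3C difference, had 11.8% (4 of 34 reads, interval 3.3 to 27.5%).

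Summed over the 13 copies, the level was 6.89% (553 of 8022 reads, interval 6.35 to 7.47%). RN7SL3 supplied most of these reads, and without it the other 12 copies gave 11.1% (209 of 1885 reads, interval 9.71 to 12.6%). Only copies that reached the listing minimum enter these sums, so copies with lower levels are missing and the sums may be too high. The sum without RN7SL3 therefore cannot be set against the level of RN7SL3. Both intervals take the summed copies to share a common level, although some pairs of copies differed in the tests that follow.

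**Figure D3:**
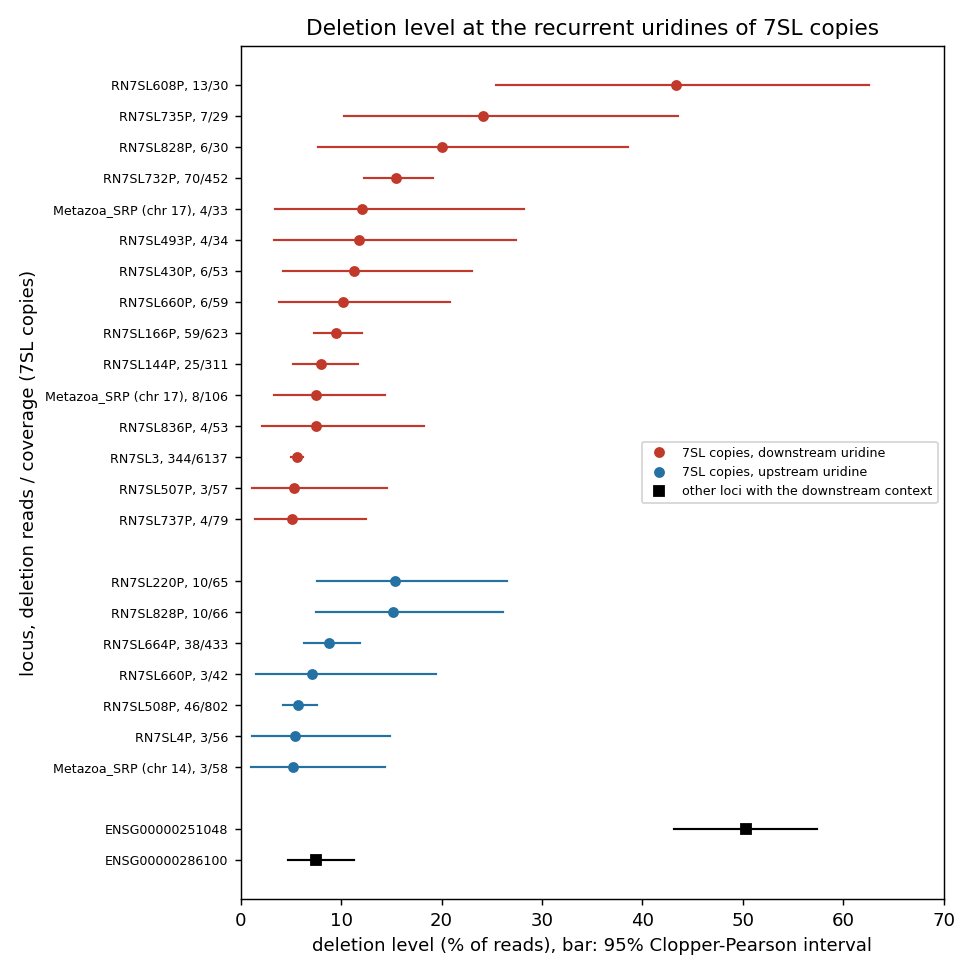
Deletion level (horizontal axis, % of reads) with its 95% Clopper-Pearson interval at the downstream uridine (red, 15 copies, of which RN7SL493P and RN7SL828P differ by 1 base in the context), the upstream uridine (blue, 7 copies) and at 2 other loci with the downstream context (black). RN7SL608P at 43.3% and RN7SL732P at 15.5% lie above RN7SL3 at 5.6%, and ENSG00000251048 lies at 50.3%.

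Copies with the same context were compared pair by pair with Fisher's exact test, two-sided, on deletion reads against other reads, with Benjamini-Hochberg adjustment over all 2956 same-context pairs of the map. Over the whole map 15.6% of such pairs differed, and among pairs of 7SL sites 15 of 84 did (17.9%), but the share among 7SL pairs rested on 1 copy. All 15 were at the downstream uridine, where 78 pairs were tested. RN7SL608P was in 10 of the 15, and without it 5 of 72 pairs differed (6.94%). For pairs with both sites at coverage of at least 60, the adjustment was taken anew over the 583 such pairs of the map. Of 16 pairs of 7SL copies 5 then differed (31.3%), against 49.4% of the 583.

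RN7SL608P was higher than RN7SL3 by 37.7 percentage points (adjusted Fisher's exact p = 5.35e-08) and higher than RN7SL732P by 27.8 points (adjusted exact p = 0.00415). It was not separated from RN7SL735P, with 43.3% and 24.1% (adjusted exact p = 0.54), nor from the Metazoa_SRP copy with 12.1% (adjusted exact p = 0.0591). RN7SL732P was higher than RN7SL3 by 9.9 points (adjusted exact p = 8.82e-12), than RN7SL144P by 7.5 points (adjusted exact p = 0.018) and than RN7SL166P by 6.0 points (adjusted exact p = 0.0225). RN7SL166P was in turn 3.9 points above RN7SL3 (adjusted exact p = 0.00231), and RN7SL735P was 18.5 points above it (adjusted exact p = 0.00781). These tests compare reads at loci of a single table, not conditions, and pairs that share a copy are not independent. They also take no account of the listing minimum. At their 30 and 29 reads, RN7SL608P and RN7SL735P could be listed only at 10.0% and 10.3% or more, above the 5.6% of RN7SL3. Copies of that depth with lower levels are therefore missing from the pairs.

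At the upstream uridine the deepest copies were RN7SL508P and RN7SL664P. RN7SL508P, inside SRRM4, a splicing regulator gene on chromosome 12, had 5.7% at 118994086 (46 of 802 reads, interval 4.23 to 7.58%). RN7SL664P on chromosome 3 had 8.8% at 48094874 (38 of 433 reads, interval 6.29 to 11.9%). The highest levels were 15.4% in RN7SL220P (10 of 65 reads, interval 7.63 to 26.5%) and 15.2% in RN7SL828P (10 of 66 reads, interval 7.51 to 26.1%), and the lowest were 5.2% in the Metazoa_SRP copy (3 of 58 reads) and 5.4% in RN7SL4P (3 of 56 reads).

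None of the 6 pairs with an identical upstream context differed, the nearest being RN7SL828P at 15.2% and RN7SL664P at 8.8% (adjusted Fisher's exact p = 0.43; unadjusted p = 0.116). At that depth the intervals of both copies overlap, and the smallest difference that could have been detected was not computed. Where both uridines were listed in a copy, the levels were 15.2% upstream and 20.0% downstream in RN7SL828P (6 of 30 reads downstream) and 7.1% upstream and 10.2% downstream in RN7SL660P (3 of 42 and 6 of 59 reads). The intervals of the 2 uridines overlapped in each copy.

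Another 3 uridines in 7SL copies were each listed once. RN7SL608P had a site 5 bases after its downstream uridine with 13.3% (4 of 30 reads, interval 3.76 to 30.7%), so that the 2 contexts join to 16 bases on chromosome 17 at 2681168 to 2681183 on the plus strand, shown because they place this uridine relative to the recurrent one.
RN7SL608P: agtagTgggaTcgcac

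RN7SL564P on chromosome 6 had 5.2% at position 149 of 250 (3 of 58 reads, context ttgccTaagga), and RN7SL752P on chromosome 3 had 5.0% at position 86 of 230 (4 of 80 reads, context taggcTgtagt).

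The 22 sites inside copies, placed by position alone, had features in common. Each listed uridine stood alone, with no uridine beside it (0 of 22 in a run), whereas 16 of the 23 sites outside (69.6%) and 58.7% of the map lay in a run of at least 2, where a deletion cannot be placed on a single base. The 10 flanking bases were 30.9% pyrimidine inside copies, 66.1% at the sites outside and 54.7% over the map. These sites repeat a few contexts, so they are not independent examples of a base composition.

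The family was somewhat deeper in coverage than the map as a whole. The 52 sites had a median level of 10.3% and a median coverage of 53 reads, against 12.0% and 35 reads over all 13398 sites. At coverage of at least 60 the medians were 7.95% for the 18 family sites and 6.7% for all 2655 such sites. Inside copies the median level was 9.15% at a median coverage of 58.5, at the sites outside 12.0% at 34, and at the 7 Metazoa_SRP sites 7.5% at 42. A site had to reach 5.0% and 3 deletion reads to be listed, so a site of 30 reads could appear only at 10% or more. At 6 of 22 sites inside copies, 10 of 23 outside, 4 of the 7 Metazoa_SRP sites and 43.5% of the map, the level was the lowest that the coverage allowed. Over the 13 copies with the downstream context, level and coverage had a Spearman rho of -0.48, given as a description of copies that may share reads, and low levels cannot be listed at low coverage.

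**Figure D4:**
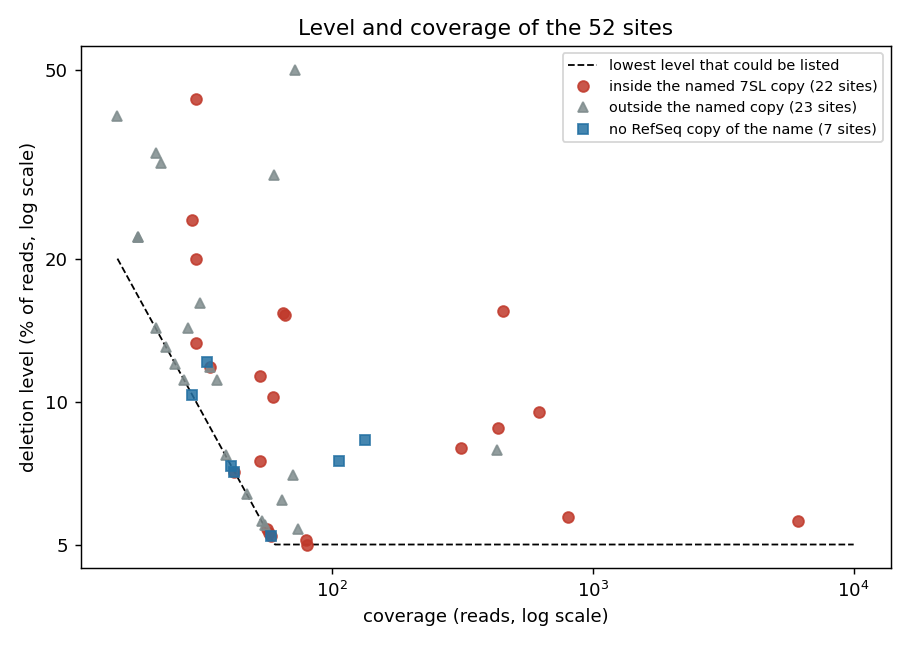
Deletion level (vertical axis, %, log scale) against coverage (horizontal axis, reads, log scale) of the 52 sites, with red circles for the 22 inside the copy of their name, grey triangles for the 23 outside it and blue squares for the 7 Metazoa_SRP sites with no RefSeq copy. The dashed line is the lowest level that could be listed at each coverage. On it or just above it lie 20 sites with the fewest whole deletion reads that could be listed. RN7SL3 is the red circle at 6137 reads.

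Set against a fixed deletion background of 1% (binomial test, one-sided, Benjamini-Hochberg over the number of tests that the deposited FDR implies), 24 of the 52 family sites passed (46.2%), against 37.5% of the whole map. Inside copies 13 of 22 passed, 9 of the 13 downstream and 4 of the 6 upstream sites among them and none of the 3 uridines listed once. Of the 23 sites outside 9 passed, and of the 7 Metazoa_SRP sites 2. With these few sites the share in the family stands near that of the map.

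At 49 of the 52 sites the authors' deposited table gives a p-value of 0, as it does at all but 156 of the 13398 sites of the map. Family sites with 3 deletion reads are among those at 0, so a value of 0 does not rank a site above RN7SL3. The other 3 values of the authors' deposited table were 1.25e-310 for RN7SL3, 4.01e-70 for RN7SL732P and 1.28e-13 for a Metazoa_SRP site on chromosome 13. The sources used here do not name the test behind them. If it was the upper tail of a binomial distribution, they imply control deletion rates of 0.283%, 0.683% and 0.265%.

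The downstream context was also listed at 2 loci outside the family, both annotated as introns of long non-coding RNA genes and neither inside a RefSeq 7SL gene. ENSG00000251048 on chromosome 4, at 18575186 on the minus strand, had 50.3% (100 of 199 reads, interval 43.1 to 57.4%). Against the 13 family copies it was higher in 11 pairs at adjusted Fisher's exact p of at most 0.000428, by 34.8 to 45.2 points, and not separated from RN7SL735P (adjusted exact p = 0.059) or RN7SL608P (adjusted exact p = 0.965). ENSG00000286100 on chromosome 20, at 44880899 on the minus strand, had 7.5% (21 of 279 reads, interval 4.72 to 11.3%), and RN7SL608P and RN7SL732P were above it (adjusted exact p = 1.5e-05 and 0.0131). No other site of the map came within 1 mismatch of the downstream or the upstream context. Whether these 2 loci hold 7SL-derived sequence beyond the 11 bases was not tested.

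Of the 23 sites outside their copy, 20 lay under another RefSeq gene, 17 of them under a protein-coding gene. The RefSeq extent of the named copy does not reach these sites. Under a gene means within its extent on either strand, as the RefSeq genes were given without strand. Of the 22 sites inside copies, 16 lay under another RefSeq gene too, 15 under a protein-coding gene. Without the strand of the genes, a transcript of that gene and a transcript of the copy were not told apart at these 16. The highest level of the whole set was at the sites named RN7SL213P, 5776 and 5785 nt from that copy, annotated as intergenic in the deposited table but inside the RefSeq extent of ZFYVE26, a gene for a zinc finger protein. They had 30.0% at chromosome 14 position 67745452 (18 of 60 reads, interval 18.9 to 43.2%) and 50.0% at 67745443 (36 of 72 reads, interval 38.0 to 62.0%), both on the minus strand.

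The joined contexts of this pair, 20 bases at 67745438 to 67745457, are shown because their first 11 bases are also listed in U3, a small nucleolar RNA that guides ribosomal RNA processing.
RN7SL213P pair: gatcaTttctatagTtcgtt

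Read counts at this depth follow from a rounded level and are open by 22 and 19 reads at the next 2 genes. The first context was listed at SNORD3C with 6.2% (2743 of 44241 reads, interval 5.98 to 6.43%), at SNORD3B-2 with 7.3% (2826 of 38718 reads, interval 7.04 to 7.56%) and inside the RefSeq pseudogene SNORD3P4 with 35.2% (19 of 54 reads, interval 22.7 to 49.4%). The site named RN7SL213P was higher than SNORD3C by 23.8 points and than SNORD3B-2 by 22.7 points (adjusted Fisher's exact p = 2.15e-07 and 2.29e-06) and was not separated from the SNORD3P4 site (adjusted exact p = 0.99). Over these 11 bases the site carried a context listed at U3 genes and at no site inside a 7SL copy.

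A Metazoa_SRP site on chromosome 13 lay in a transfer RNA gene. At 30673983 on the minus strand it stands at position 55, counted on that strand, of the 74 nt of TRN-GTT2-4, an asparagine tRNA gene, in the context ggtggTtcgag. Its level was 8.3% (11 of 133 reads, interval 4.2 to 14.3%). The same context was listed inside TRN-GTT6-1 with 12.4% (25 of 201 reads) and inside TRN-GTT2-8 with 21.4% (12 of 56 reads), neither of which was separated from it (adjusted Fisher's exact p = 0.729 and 0.0886). The listed uridine is the first of the pair in GUUCNA, the T-loop motif that TRUB1 modifies at the second. In such a run of 2 uridines a deletion cannot be placed on a single base, so the modified base of the pair is not known.

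Motifs of a named enzyme were few among the other sites, as they were over the map. As listed, 3 of 52 fell in any of the classes searched, and no single class held more than 3.09% of the map. A tract of at least 5 uridines with the site in its middle stood at 0 of 52, against 0.231% of the map. GUUCNA, with the second uridine as the site, was held by RN7SL426P (context caggtTccagt, 5.4%, 4 of 74 reads), 1 of 52 sites or 1.92%, against 0.746% of the map. The motifs of PUS7 (UNUAA or UNUAG) and PUS1 (the same with A, C or U first and a purine second), with the site at the third base, overlap where U comes first and a purine second. This shared form stood at 1 of 52 sites, RN7SL254P (context gactaTaattc, 5.6%, 3 of 54 reads), or 1.92% against 1.63% of the map. The form of PUS1 alone stood at RN7SL828P, whose downstream uridine reads agtagTaggat with the G7A difference, again 1.92% against 2.33% of the map, and the form of PUS7 alone at 0 of 52, against 3.09% of the map. All were searched on the listed strand. Neither the common downstream context nor any upstream context held one of these motifs. With any uridine of a run counted, 10 of 52 sites had a motif, or 19.2% against 20.7% of the map. Of these, 6 were in a tract of at least 5 uridines, 11.5% of the sites against 9.66% of the map.

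Among the other distant sites the highest levels came from few reads. RN7SL16P, 1074 nt from its copy and under DHX15, a splicing helicase gene, had 40.0% (6 of 15 reads, interval 16.3 to 67.7%). RN7SL802P had 33.3% (7 of 21 reads), 74079 nt from its copy, and RN7SL596P had 31.8% (7 of 22 reads), 11739 nt from it. RN7SL751P was listed at 3 sites within the extent of ROBO1, an axon guidance receptor gene on chromosome 3. All 3 are on the plus strand, whereas a site that the map names ROBO1, at 78884544, is on the minus strand. The RN7SL751P sites at 78864055 and 78864056 are neighbouring uridines of a run with the same 22.2% (4 of 18 reads each). The RN7SL751P site at 78890019 had 11.1% (3 of 27 reads).

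The deepest distant site was named RN7SL332P, with 7.9% (34 of 429 reads, interval 5.55 to 10.9%) at 33890 nt from its copy on chromosome 6, in a run of 5 uridines. RN7SL825P, under KIF5B, a kinesin gene, had 16.1% (5 of 31 reads), and RN7SL166P had 7.0% (5 of 71 reads) at its distant site. RN7SL254P was listed at 2 sites 39 bases apart, with 6.2% and 5.6% (4 of 64 and 3 of 54 reads). A Metazoa_SRP locus on chromosome 1 was listed at 2 sites 685 bases apart, with 7.3% and 10.3% (3 of 41 and 3 of 29 reads). Not named above are 10 sites outside the recurrent contexts, which had 5.5 to 14.3% with 3 or 4 deletion reads each.

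The protein partners of 7SL RNA were looked up in the same map. Of 8 genes for the proteins of the particle and its receptor, 3 had a listed site, with 5 sites in all. SRP72, which with SRP68 binds the S domain, had 45.5% and 55.6% at neighbouring uridines of an intronic run on chromosome 4 (10 of 22 and 10 of 18 reads, intervals 24.4 to 67.8% and 30.8 to 78.5%). SRP68 had 7.5% and 6.5% at neighbouring uridines of its 3′UTR, and SRPRB, a subunit of the receptor, had 7.5% in an intron, each with 3 deletion reads. SRP9, SRP14, SRP19, SRP54 and SRPRA had 0 listed sites, as did BCYRN1, a brain-expressed RNA derived from an Alu element.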

How the data were processed

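The deposited table is 1 list of HEK293T sites on hg38, per the submitters' processing notes; the sources used here name no aligner or caller, nor the libraries behind each value. Per the file headers, the authors deposited the deletion level as a fraction, printed here as a percentage, the coverage as a count of reads, and a p-value with its FDR. Deletion reads are level times coverage, which came out whole at each of the 13398 sites within the 0.0005 to which the level is rounded; at sites of over 1000 reads (RN7SL3, SNORD3C and SNORD3B-2 here) the level's rounding leaves them approximate, by 3 reads at RN7SL3.

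The members and lists were chosen with earlier results of these data known. Sites were placed in RefSeq genes of GRCh38.p14, which were given without strand. Python 3.11.15 with scipy 1.17.1 computed intervals, Fisher's exact tests over all 2956 same-context pairs, and binomial tests with Benjamini-Hochberg adjustment over 3860000 tests (threshold 0.05). The planned adjustment over 7SL pairs was replaced by that over the map, and the planned test per context of summed reads inside against outside the family by the pairs. The downstream and upstream groups allow 1 mismatch and were defined after the contexts were seen. Named are the highest and lowest sites of context groups, the 10 deepest and 10 highest, the sites of loci with several, and RN7SL1 to RN7SL3, and further sites chosen after their values were seen. The tests were checked on simulated data.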

Additional observations from a re-analysis of the deposited data

How the results depend on the processing

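No paired analysis was possible because the table has no column per library. Of 22 alternatives, 15 left the count within 1.5 times, or the median within its 95% interval by order statistics (7.5 to 12.1%), and 7 moved it. The number of family sites past the deletion background was 24 at 1%, 52 at 0.1%, 5 at 5%, and 13 with only sites of coverage of at least 60. Pairs of 7SL copies that differed numbered 15 of 84, and 5 at coverage of at least 60 (of 16 pairs, adjusted over the pairs at that coverage). Without the RN7SL608P site they numbered 5, an alternative chosen after seeing the data. Family sites with a context also listed outside the family numbered 19, and 29 when only the 9-nt core had to match. Sites in a sequence class numbered 3, and 10 when every uridine of a run could be the site. Each of these alternatives changes what is counted, and a further cause was not tested. Depth limits many levels: 16 of the 52 sites (30.8%) rest on 3 deletion reads, against 36.8% of the map.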
